A study of Homo sapiens with 25 samples.

Results

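The cytosolic ribosomal protein genes were followed in DND-41 cells, an established human line grown from a T-cell acute lymphoblastic leukaemia, as histidine was lowered in its medium. Genes were taken by symbol: RPL or RPS with a number, the stalk genes RPLP0, RPLP1 and RPLP2, RPSA, RPS4X and RPL36AL, with pseudogenes left out. This gave 78 genes of the 31919 in the table, 47 of the large (60S) and 31 of the small (40S) subunit. All 78 had a value of at least 10 in at least 2 libraries and entered the tests. FAU, whose ribosomal protein is made as a fusion, falls outside the symbol rule and is given with the related genes.

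A ribosome is built from ribosomal RNA and one copy of most of these proteins, so their genes are among the most abundantly transcribed in a dividing cell and are usually made in matched amounts. Their mRNAs carry a 5′ terminal oligopyrimidine (TOP) tract, a run of C and T that begins at the cap. When amino acids run short the kinase mTORC1 is turned down, LARP1 binds the TOP tract, translation of these mRNAs stops and they are held in store. Several members have a place in disease: RPL5, RPL10, RPL11 and RPL22 are mutated in T-cell leukaemia, and RPS19, RPS26 and others in Diamond-Blackfan anaemia.

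Cells were kept in medium with 100%, 50%, 25% or 12.5% histidine and sampled on day 6 or day 9, or with no histidine and sampled on day 6. These are the days of the sample labels, while the design text of the series names day 3 and day 6. Every group is the same line, and the fully supplied medium of the same day is the control. There were 3 libraries a group, except 2 at 25% on day 6 and 2 at 50% on day 9, 25 in all. The labels do not say that replicates came from separate cultures, so p-values measure only the spread between these libraries, and in bulk RNA fewer cells of a kind and less RNA per cell cannot be told apart.

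The start-site windows below show the tract in the members whose levels set the later comparisons. They are RefSeq sequences on GRCh38.p14, 15 bases before and 15 from the annotated start on, written 5′ to 3′ on the gene's strand. Capitals mark a C within 5 bases of the start with the C and T run after it, at least 4 further bases. The first 4 are members that were lower in low histidine, the next 3 members that were higher, and the last 3 have no tract within 5 bases of the annotated start. RPL18 and RPL36A are placed by their changes relative to the other members, given below. On the values as deposited neither passed against full medium on day 9.
RPL3, chr22:39319609-39319638, minus strand: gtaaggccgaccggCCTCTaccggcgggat
RPS14, chr5:150449725-150449754, minus strand: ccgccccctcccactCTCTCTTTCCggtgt
RPL12, chr9:127451392-127451421, minus strand: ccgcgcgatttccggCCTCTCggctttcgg
RPL18, chr19:48619164-48619193, minus strand: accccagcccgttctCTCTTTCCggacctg
RPS6, chr9:19380222-19380251, minus strand: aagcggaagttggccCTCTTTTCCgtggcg
RPL36A, chrX:101390996-101391025, plus strand: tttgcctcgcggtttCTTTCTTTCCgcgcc
RPL36AL, chr14:49620612-49620641, minus strand: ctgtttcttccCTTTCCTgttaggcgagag
RPS26, chr12:56041903-56041932, plus strand: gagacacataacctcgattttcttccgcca
RPL9, chr4:39458908-39458937, minus strand: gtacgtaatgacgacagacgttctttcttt
RPS29, chr14:49598696-49598725, minus strand: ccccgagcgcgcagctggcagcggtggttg

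The promoter table held 63 of the 78 members. A tract within 5 bases of the start was found in 54 of them (85.7%), against 25.2% of all 27305 genes in the table and 28.6% of the 11390 other genes tested. Allowing 10 bases gave 58 of 63 (92.1%, against 38.4% of all genes). In the 300-base promoter window, searched on both strands, CCGGAAG was in 22 of the 63 (34.9%, against 12.2% of all genes and 21.6% of the other tested genes). TATAAA was in 5 (7.94%, against 14.0% of all genes and 8.70% of the other tested genes) and CACGTG in 4 (6.35%, against 8.77% and 12.1%).

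Values are the authors' normalized counts, with library totals between 13574787 and 16097408. The 10 markers of T-cell leukaemia looked up summed to between 56114 and 82319 in every library, lowest without histidine. Markers of other cell types summed to at most 36.8 for myeloid and 7.89 for erythroid cells, and B-cell markers to between 9674 and 22795. The B-cell sum, over 5 genes, was 15270 to 16901 in the day 6 controls. It was 19331 to 21275 at 25% on day 6 and 9674 to 13269 without histidine. Which of the 5 genes carry it is not given, and whether other cells were present was not tested. Epithelial markers, mostly keratins, ranged from 0 to 1455 and were high in 6 libraries, 2 of the 3 controls of day 6, 2 of the 3 at 50% on day 6 and 2 of the 3 at 25% on day 9, so that leaving them out leaves 1 library in each of these groups.

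The 78 genes moved up and down together between libraries of the same group. Together they held between 2.79% and 5.86% of all normalized counts. The share was 3.90%, 3.76% and 4.17% in full medium on day 6, and 2.79%, 3.11% and 4.15% at 12.5%. It was 3.93%, 4.98% and 5.86% without histidine. At 12.5% replicates 1 and 2 lay below all other libraries of the study and replicate 3 lay among the controls, and without histidine replicate 1 lay among the controls and the other 2 above them.

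**Figure D1:**
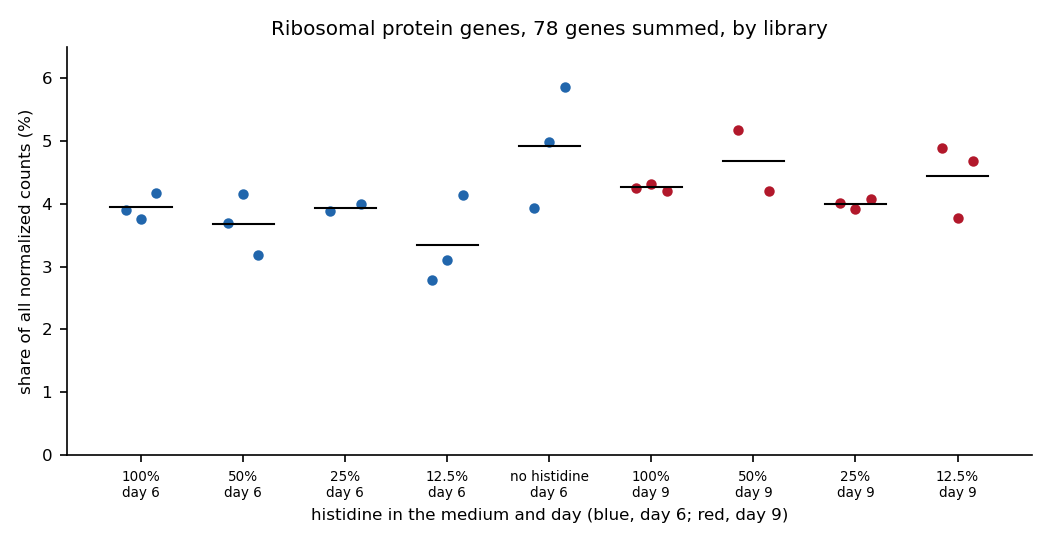
Share of all normalized counts held by the 78 ribosomal protein genes (vertical axis, percent) in each of the 25 libraries, by histidine level and day, with points for libraries and bars for group means. The 3 libraries at 12.5% on day 6 span 2.79% to 4.15% and the 3 without histidine 3.93% to 5.86%, while the controls of day 9 span 4.21% to 4.32%.

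The remaining groups overlapped with their controls or came close to them. On day 6 they were 3.69%, 4.16% and 3.19% at 50% histidine, and 3.88% and 3.99% at 25%. On day 9 the controls had 4.25%, 4.32% and 4.21%, and the 25% libraries 4.02%, 3.91% and 4.08%. The shares were 5.17% and 4.21% at 50%, and 4.90%, 3.77% and 4.68% at 12.5%. Libraries at 25% and 100% lay close together on both days, and those at the other levels lay further apart. The large subunit held between 59.3% and 62.1% of the members' counts in every library.

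Most of the spread of a single member between replicates was shared with the others. The members' mean log2 level had an SD of 0.229 between libraries of one group, and a single member had a median SD of 0.247 (0.154 to 0.391). After each library was divided by the geometric mean of the 78 genes, the median SD was 0.0770 (0.0361 to 0.262), and it was lower for 78 of 78 members. This lowering follows largely from dividing the members by their own shared level and is not a separate result. For the 3632 other genes with a mean of at least 1000 the median SD on the deposited scale was 0.125, and their SD after the division is not given. Both scales are given below: the deposited one holds the shared movement, and the relative one shows which members moved against the rest, where some must rise if others fall. The relative scale was chosen after the data were seen.

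**Figure D2:**
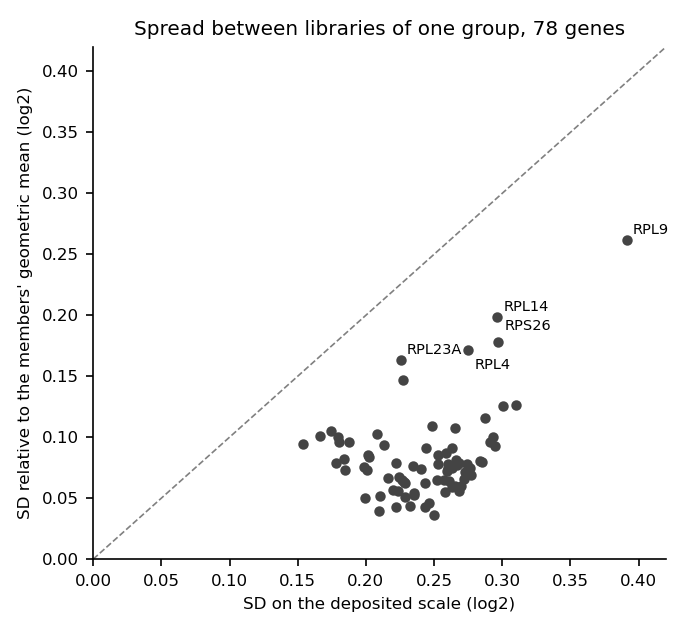
Standard deviation of each of the 78 genes between libraries of one group (log2), on the deposited scale (horizontal axis) and relative to the geometric mean of the 78 genes (vertical axis), with the line of equality dashed. All 78 points lie below the line, which follows largely from dividing the genes by their own shared level. RPL9, RPL14, RPS26, RPL4 and RPL23A have the widest spread on the relative scale.

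At 50% histidine no member passed the test on either day. On day 6 the median log2 change of the 78 was -0.15, with 77 of 78 below 0, and on day 9 it was 0.16, with 75 above 0. In limma (adjusted p under 0.05) 0.0% of 18799 genes passed on day 6 and 0.00532% on day 9. At an unadjusted p under 0.05 there were 0 members on either day, against 695 and 906 of all genes. The members' mean log2 level had an SD of 0.229 between libraries of one group, larger than these medians. Leaving out 1 library at a time gave medians of -0.28 to 0.00 on day 6 and -0.02 to 0.36 on day 9, and without the 6 keratin-high libraries the day 6 median was -0.52, against 1 remaining control.

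At 25% histidine single members moved while the median of the family lay near 0. On day 6 RPL9, RPS26 and RPL36AL rose and RPL37 and RPL3 fell, and the median over the 78 was 0.06 (-0.01 without the keratin-high libraries). On day 9 RPL36AL and RPS26 rose and RPL3, RPL36 and RPL12 fell, with a median of -0.03 (0.02 with upper-quartile rescaling). Of all genes tested 13.7% passed on day 6 (6.79% rose, 6.92% fell) and 18.2% on day 9 (9.4% rose, 8.76% fell), so the 5 members called on each day are a smaller share than the background. RNAs without a poly(A) tail summed to between 28547 and 35190 at 25% on day 6, above every control (8099 to 28216), and 0 of 9 passed in limma. Their part in the result was not tested. With quantile normalization 2 members rose and 7 fell on day 9. Shares of all genes called are not given for such alternatives or for left-out libraries, here and below. Leaving out either 25% library of day 6 left 1 call, and leaving out control replicate 1 or 3 of that day left 3. Leaving out replicate 2 of the 25% or the 100% libraries of day 9 left 3, and the day 6 no-histidine replicate 1 left 8.

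At 12.5% histidine on day 6 most ribosomal protein genes had lower group means. Replicates 1 and 2 carried the shared part of this fall. The members' mean log2 level was 11.85, 12.05 and 12.55 at 12.5% (group SD 0.359), against 12.54, 12.48 and 12.61 in full medium. Since members move together, their calls on the deposited scale, here and in other comparisons, are not independent. Of the 78 genes 32 fell and 0 rose (limma, adjusted p under 0.05), with a median log2 change of -0.40 and 71 below 0, while the median of all genes was 0.04. Among all genes 27.0% passed, 15.3% lower and 11.7% higher. The fall took in 17 of 31 small-subunit genes (median -0.49) and 15 of 47 large-subunit genes (median -0.37). The 5 largest falls were RPS29 (-1.09), RPS14 (-1.04), RPS2 (-0.93), RPL37 (-0.89) and RPL12 (-0.87). At an unadjusted p under 0.05, 45 were lower and 1 was higher, against 7014 of all 18799 genes in either direction.

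The size of this fall depended on the library and the scale. Without 12.5% replicate 3, 54 members fell, without replicate 1 14 and without replicate 2 19, and without control replicate 3 20. With upper-quartile, quantile or non-member rescaling 23 or 24 fell and 2 rose, RPS26 each time with RPL36AL or RPS6, and the median was -0.27 to -0.29. Upper-quartile rescaling moved the median of all genes from 0.04 to 0.17. In the same libraries RNAs without a poly(A) tail were low: 8 of 9 such RNAs fell, and they summed to between 3868 and 4807 at 12.5% against 8099 to 28216 in the controls. Their part in the fall was not tested. With 5.8S rRNA as a covariate 35 members fell. Since 5.8S rRNA was between 74.8 and 88.2 in these 12.5% libraries, below all other libraries, the covariate and the group cannot be told apart there. Without the libraries high in keratin, which leaves 1 control, the median was -0.49.

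On day 9 at 12.5% histidine the median of the family lay near 0 and 7 members passed. RPL36AL and RPS6 rose, and RPS14, RPL37, RPS2, RPS15 and RPL3 fell, with a median of 0.02, while 9.35% of all genes rose and 11.5% fell (20.8% in all). With upper-quartile rescaling 7 rose and 2 fell, with quantile normalization 6 rose and 4 fell, and rescaled to non-members 6 rose and 5 fell. RPL36AL rose and RPL3 and RPL37 fell under all 3. The median of all genes was 0.03 on the deposited scale, and 0.14, 0.01 and 0.08 under these scalings in the same order. The members' median under them was 0.14, 0.09 and 0.08, so with the first and last it lay at that of all genes. RNAs without a poly(A) tail summed to between 13498 and 24998, against 13048 to 28881 in the controls, and 0 of 9 passed (limma). The count was 11 without 12.5% replicate 3 of day 6, 4 without control replicate 1, 3 without control replicate 2 or 3 or 12.5% replicate 2, and 2 without 12.5% replicate 3.

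Without histidine on day 6, 9 members rose and none fell. RPL9 (1.15), RPS6 (0.78), RPS26 (0.78), RPS3A (0.66), RPS12 (0.55), RPS18 (0.53), RPL13 (0.50), RPS24 (0.48) and RPL6 (0.45) rose on the log2 scale, 6 of 31 small-subunit and 3 of 47 large-subunit genes. Of all genes 29.8% passed (13.3% rose, 16.5% fell), so the 9 of 78 are near the background for rises. RNAs without a poly(A) tail summed to between 4244 and 17162, against 8099 to 28216 in the controls, and 1 of 9 fell. The 0 falls stand beside 1 member lower at an unadjusted p under 0.05. At that threshold 17 were higher, and 7397 of all 18799 genes passed in either direction. With the other 3 scalings 21 to 25 rose and 0 fell. These scalings also moved other genes: the median of all genes was 0.03 on the deposited scale. It was 0.10 with upper-quartile, 0.04 with quantile and 0.15 with non-member rescaling. The members' median was 0.16 on the deposited scale and 0.22, 0.29 and 0.28 in the same order. Replicate 1, the lowest of the 3, has a title naming day 6 and a time label naming day 9: without it 26 rose. Without replicate 2 or control replicate 1 5 rose, without replicate 3 4, and without 12.5% replicate 3 14. With the 5.8S covariate RPL9 and RPS6 rose, and without keratin-high libraries 1 gene, RPS26, rose, against 1 control.

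Between 12.5% and no histidine every member had the higher mean in the cells given none. Of the 78 genes 55 rose and 0 fell, with 78 of 78 changes above 0 and a median log2 difference of 0.58, while 7.0% of all genes rose and 8.26% fell (15.3% in all). RPL12 rose most (1.19), then RPS9 (0.87), RPL39 (0.84) and RPS2 (0.84). This comparison uses the same 12.5% libraries as the fall above. The count was 10 without 12.5% replicate 1, 14 without 12.5% replicate 2, 16 without no-histidine replicate 2, 9 without no-histidine replicate 3 and 10 in a fit on these groups alone, while the median without any 1 library lay between 0.42 and 0.78.

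**Figure D3:**
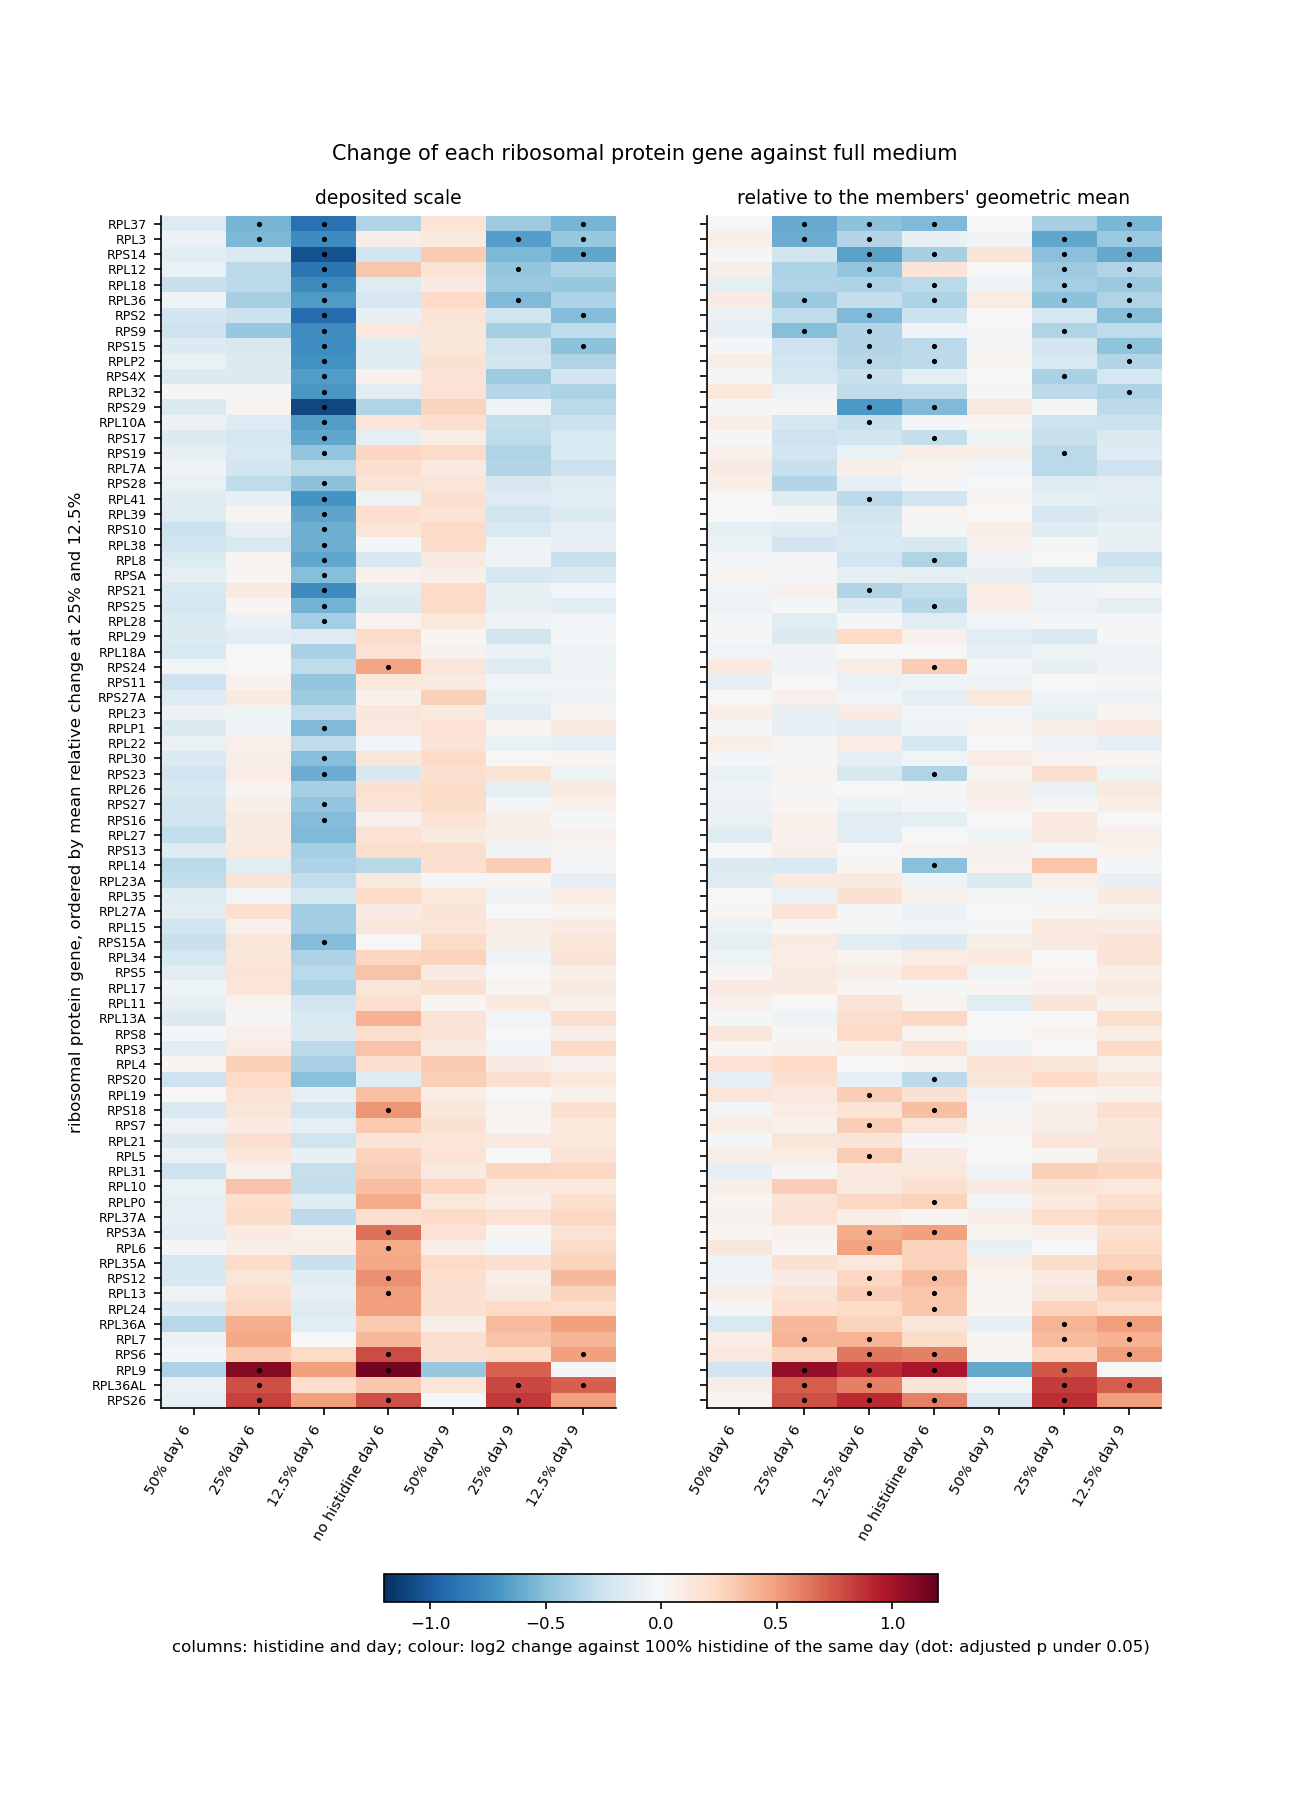
Log2 change of each of the 78 genes (rows, ordered by their mean relative change at 25% and 12.5%) against full medium of the same day at each histidine level and day (columns), on the deposited scale and relative to the geometric mean of the 78 genes, with dots at an adjusted p under 0.05. On the deposited scale the 12.5% column of day 6 is blue in 71 of 78 rows, and on the relative scale values above and below 0 occur in every column.

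Relative to the geometric mean of the family, members split into some that rose and some that fell at the low levels. At 25% 4 rose and 4 fell on day 6, and 5 rose and 8 fell on day 9. At 12.5% 12 rose and 14 fell on day 6, and 5 rose and 10 fell on day 9, and without histidine 10 rose and 13 fell. At 50% none passed in limma on either day (0 and 1 at an unadjusted p under 0.05, against 504 and 521 of all 19245 genes). The background on this scale at 25% was 3.22% of all genes called on day 6, 1.44% upward and 1.78% downward, and 6.2% on day 9, 3.62% upward and 2.59% downward. At 12.5% 19.2% rose and 3.11% fell on day 6, and 2.63% and 4.91% on day 9. Without histidine 3.47% rose and 15.0% fell. At 12.5% on day 6 the division itself moved the median of all genes to 0.44, so that column sets members against each other and not against other genes.

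Several of the relative counts fell when libraries were left out. Without the keratin-high libraries, which leaves 1 control and 1 library at 50% on day 6 and 1 library at 25% on day 9, 1 member passed at 12.5% on day 6 and 8 on day 9, 0 at 25% on either day, and 1 without histidine. With the 5.8S covariate, which is lowest in the 12.5% libraries of day 6, 10 passed at 12.5% on day 6 and 12 on day 9. Left out alone, each library of the 12.5% or 100% groups of day 6, except 12.5% replicate 3, left 13 to 17. At 25% on day 6 either 25% library left 0 or 1 and control replicates 1 and 3 left 3 and 4. On day 9 at 25%, leaving out any of 4 libraries (100% replicates 2 and 3, 25% replicates 1 and 2) left 5 or 6. At 12.5% on day 9, 9 passed without 100% replicate 1 or 12.5% replicate 3. Without histidine 13 to 15 passed when control replicate 2 or 3 or no-histidine replicate 2 was left out.

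Day 6 and day 9 share no library, so the split could be read on each. At 25% RPL36AL, RPL7, RPL9 and RPS26 rose on both days (100% of the 4 on day 6, 80% of the 5 on day 9) and RPL3, RPL36 and RPS9 fell on both (75% of 4 and 37.5% of 8). At 12.5% RPL36AL, RPL7, RPS12 and RPS6 rose on both days (33.3% of 12 and 80% of 5). RPL12, RPL18, RPL3, RPL37, RPLP2, RPS14, RPS15 and RPS2 fell on both (57.1% of 14 and 80% of 10). No member passed in opposite directions. Over the 78 genes, which are not independent replicates, Pearson's r between the days was 0.897 at 25% and 0.811 at 12.5%, and 69 and 61 of 78 had the same sign. On the deposited scale r was the same but 54 and 43 had the same sign, since the shared shift of each day adds to every member. Tests of the day by dose difference passed 0 members at 50%, 25% or 12.5% on the deposited scale (limma), where 0.0%, 0.00532% and 0.0638% of all genes passed, 0.0426% upward at 12.5%. The members' median difference, day 9 minus day 6, was 0.31 at 50% with 77 of 78 above 0, -0.09 at 25% with 64 below 0, and 0.40 at 12.5% with 76 above 0. At an unadjusted p under 0.05 there were 0, 0 and 15 members, against 802, 1034 and 1887 of all 18799 genes.

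**Figure D4:**
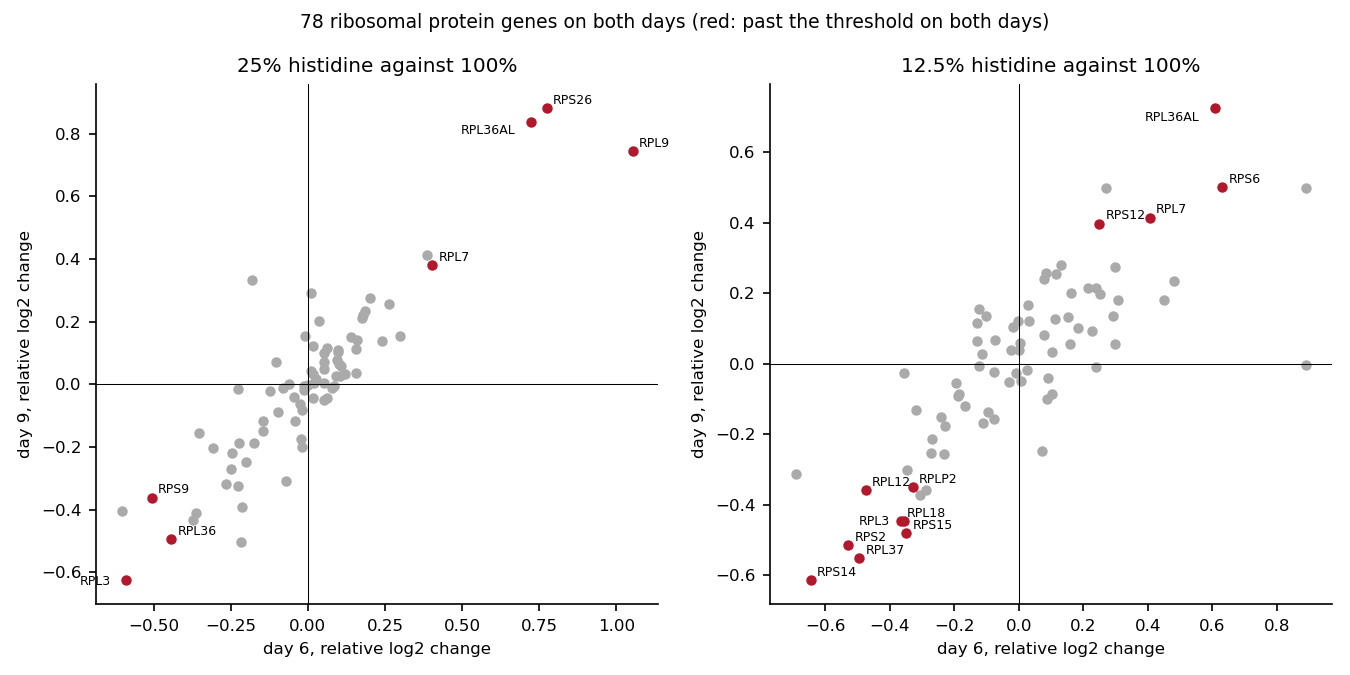
Relative log2 change of each of the 78 genes against full medium on day 6 (horizontal axis) and day 9 (vertical axis), at 25% and 12.5% histidine, with genes past the threshold on both days in red and named. The points run along the diagonal, with Pearson's r of 0.897 at 25% and 0.811 at 12.5%.

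RPL3, which sits beside the peptidyl transferase centre of the 60S subunit, fell in all 4 comparisons of 25% or 12.5% with full medium. On day 6 it was at 36029, 34588 and 36803 normalized counts in full medium, and at 24846 and 24284 at 25%. At 12.5% it was at 18699, 19948 and 25711. No library at 25% or 12.5% reached the lowest control. Its log2 change was -0.54 ± 0.13 (SE, adjusted p = 0.00775) at 25% and -0.75 ± 0.12 (adjusted p = 6.48e-05) at 12.5%.

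On day 9 the same gap was present. RPL3 was at 37595, 35494 and 36785 in full medium, at 23558, 22903 and 23021 at 25%, and at 30486, 24528 and 25488 at 12.5%. The changes were -0.66 ± 0.12 (adjusted p = 0.000348) and -0.45 ± 0.12 (adjusted p = 0.00851). Without histidine RPL3 was at 31968, 41385 and 41026, a range that overlaps the controls, with a log2 change of 0.08 ± 0.12. Its falls at 12.5% and at 25% on day 9 passed in all alternatives on the deposited scale, and at 25% on day 6 the call ended when either 25% library or the keratin-high libraries were left out.

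RPL12, at the base of the stalk that recruits translation factors, had the widest difference between 12.5% and no histidine. It was at 4594, 4538 and 4978 in full medium on day 6. It was at 2401, 2331 and 3026 at 12.5%, and at 4714, 6176 and 6951 without histidine. The 12.5% and no-histidine libraries did not overlap, and the difference of 1.19 ± 0.15 (adjusted p = 5.68e-06) passed in every alternative, as did the fall of 0.87 against full medium. On day 9 RPL12 fell by 0.47 at 25%, a call that 7 of 39 alternatives ended.

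RPL37, a small zinc-binding protein of the 60S subunit, fell at both low levels. Its libraries were at 1561, 1186 and 1696 in full medium on day 6, at 1064 and 934 at 25%, and at 726, 776 and 871 at 12.5%. On day 9 it was at 1510, 1442 and 1488 in full medium and at 1157, 894 and 979 at 12.5%. All 12.5% libraries lay below the controls of their day, by -0.89 ± 0.17 (adjusted p = 0.000307) on day 6 and -0.56 ± 0.17 (adjusted p = 0.0177) on day 9. The day 9 call ended without 12.5% replicate 2 or 3, and the call at 25% on day 6 (-0.55, adjusted p = 0.0482) in 21 of 39 alternatives.

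The paralogs RPL36A and RPL36AL encode nearly the same protein from the X chromosome and chromosome 14, and RPL36AL rose at 25% on both days and at 12.5% on day 9. RPL36AL was at 1706, 1678 and 1801 in full medium on day 6, and at 2917 and 2986 at 25%. On day 9 it was at 1641, 1704 and 1781 in full medium, at 3066, 2967 and 2907 at 25%, and at 3019, 2607 and 2806 at 12.5%. These 3 groups lay above every control library. The log2 changes were 0.77 ± 0.15 (adjusted p = 0.000829), 0.80 ± 0.13 (adjusted p = 0.000112) and 0.72 ± 0.13 (adjusted p = 0.000349), and both day 9 calls passed in all 39 alternatives. The day 6 call ended without the keratin-high libraries.

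At 12.5% on day 6, where most of the family fell, RPL36AL was at 1696, 2065 and 2289, a change of 0.21 ± 0.13 that did not pass. Relative to the family it rose by 0.61 ± 0.11 there. Without histidine it was at 1767, 2245 and 2529 and did not pass. RPL36A had changes of 0.43 and 0.38 at 25% and 0.49 at 12.5% on day 9 that did not pass on the deposited scale, and on the relative scale it rose on day 9 at both levels (0.41 and 0.50). The row of its pseudogene RPL36AP37 held 79.4% as many counts as RPL36A, so reads of RPL36A could be shared with it, and with RPL36AL.

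RPL9, a 60S protein near the factor-binding site, rose by 1.10 ± 0.32 at 25% on day 6 and by 1.15 ± 0.28 without histidine (adjusted p = 0.0214 and 0.00322). It was at 102, 117 and 128 in full medium, at 251 and 244 at 25%, and at 202, 285 and 292 without histidine. None of these libraries overlapped the controls of day 6. The call at 25% ended without either 25% library, without control replicate 1 or without the keratin-high libraries, and the call without histidine ended in the last case. The day 9 controls themselves were at 205, 217 and 178, and the rise at 25% on that day (0.71, adjusted p = 0.0897) did not pass. RPL9 had the largest spread between replicates of the 78, with an SD of 0.391. Its counts were low in every library (52.6 to 366), and whether the authors' counting gave some of its reads to another copy was not tested, so its values are uncertain.

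The stalk proteins RPLP1 and RPLP2 fell by 0.53 and 0.73 at 12.5% on day 6, and RPLP0, which anchors them, had a change of -0.15 that did not pass. RPL5 and RPL11, which join 5S rRNA and bind MDM2 when free of the ribosome, had changes of -0.09 and -0.24 at 12.5% and 0.27 and 0.20 without histidine on day 6, none past the threshold. RPL10, one of the last proteins to join the 60S subunit, and RPL22, both altered in T-cell leukaemia, passed in no comparison with full medium. RPL39, which lines the exit tunnel, and RPL41, the shortest member, fell by 0.64 and 0.71 at 12.5% on day 6. RPL39 did not pass without 12.5% replicate 1 or 2, RPL41 not without replicate 1, and neither without the keratin-high libraries.

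In the small subunit RPS14, RPS2 and RPS15 fell at 12.5% on both days. RPS14, a platform protein whose loss marks the 5q- syndrome, was at 5536, 6377 and 6475 in full medium on day 6 and at 2366, 2608 and 4248 at 12.5%. On day 9 it was at 6514, 7379 and 7195 in full medium and at 5652, 3522 and 4755 at 12.5%. The groups did not overlap on either day, with changes of -1.04 ± 0.22 (adjusted p = 0.000962) and -0.62 ± 0.22 (adjusted p = 0.0449). The day 6 call passed in all 39 alternatives, and the day 9 call failed in 18 of them but passed in all 35 on the relative scale (-0.61 ± 0.12, adjusted p = 0.00192).

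RPS2, near the entrance of the mRNA channel, fell by 0.93 on day 6 and 0.52 on day 9, and RPS15, at the decoding site, by 0.75 and 0.49. The day 9 call ended in 22 of 39 alternatives for RPS2 and in 7 for RPS15, while on the relative scale both passed in all 35. RPS2 has a row for the pseudogene RPS2P5 at 24.4% of its own counts. RPS29, a zinc-binding protein of the 40S head, had the largest fall of the family at 12.5% on day 6 (-1.09 ± 0.21, adjusted p = 0.000394). It was at 2803, 2849 and 3214 in full medium and at 1080, 1257 and 1965 at 12.5%. On day 9 its change was -0.32 and did not pass.

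RPS6, the protein phosphorylated by the S6 kinases below mTORC1, rose without histidine and at 12.5% on day 9. It was at 10860, 11491 and 12632 in full medium on day 6 and at 15889, 21510 and 23282 without histidine. At 12.5% it was at 11728, 11980 and 18243 on day 6. On day 9 it was at 13595, 14879 and 13123 in full medium and at 21964, 15611 and 21534 at 12.5%. The no-histidine and the day 9 12.5% libraries lay above all controls of their day, with changes of 0.78 ± 0.17 (adjusted p = 0.001) and 0.49 ± 0.17 (adjusted p = 0.0412). The day 9 call ended in 8 of 39 alternatives. Relative to the family RPS6 also rose at 12.5% on day 6 (0.63 ± 0.10, adjusted p = 0.000213).

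RPS26, which touches the mRNA upstream of the start codon, rose at 25% on both days. It was at 798, 617 and 564 in full medium on day 6, at 1085 and 1231 at 25%, at 687, 982 and 1154 at 12.5% and at 820, 1143 and 1491 without histidine. On day 9 it was at 692, 951 and 716 in full medium, at 1439, 1403 and 1360 at 25% and at 1199, 958 and 1138 at 12.5%. The 25% and no-histidine libraries lay above the controls of their day. Changes were 0.82 ± 0.24 (adjusted p = 0.021) and 0.85 ± 0.21 (adjusted p = 0.00614) at 25%, and 0.78 ± 0.21 (adjusted p = 0.00687) without histidine. The day 6 call at 25% ended without either 25% library or control replicate 2 or 3, the no-histidine call without replicate 3, and both 25% calls without the keratin-high libraries. At 12.5% they were 0.49 on each day and did not pass on the deposited scale, while relative to the family RPS26 rose on day 6 in all 35 alternatives.

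RPS3A and RPS12, both of the 40S subunit, rose by 0.66 and 0.55 without histidine. RPS3A was at 10665, 9856 and 11100 in full medium on day 6 and at 12682, 16594 and 21965 without histidine, with no overlap. Its call ended without no-histidine replicate 3, and that of RPS12 without replicate 2 or 3 or control replicate 1 or 2. Relative to the family RPS12 rose at 12.5% on both days (0.25 and 0.40), and RPL7, of the 60S subunit, rose at 25% (0.40 and 0.38) and at 12.5% (0.41 on each day).

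A further 4 members moved against the rest of the family. RPL18, of the 60S subunit, fell by 0.37 and 0.45 at 12.5% and by 0.41 at 25% on day 9 relative to the family. RPL36 fell by 0.44 and 0.49 at 25%, and RPS9, which sits at the entry of the mRNA channel, by 0.51 and 0.36. RPL36 also passed on the deposited scale at 25% on day 9 (-0.53), not without control replicate 2, 25% replicate 2 or the keratin-high libraries. RPL14 fell by 0.50 relative to the family without histidine and by 0.53 between 12.5% and none, and RPL13A passed in no comparison with full medium on either scale.

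**Figure D5:**
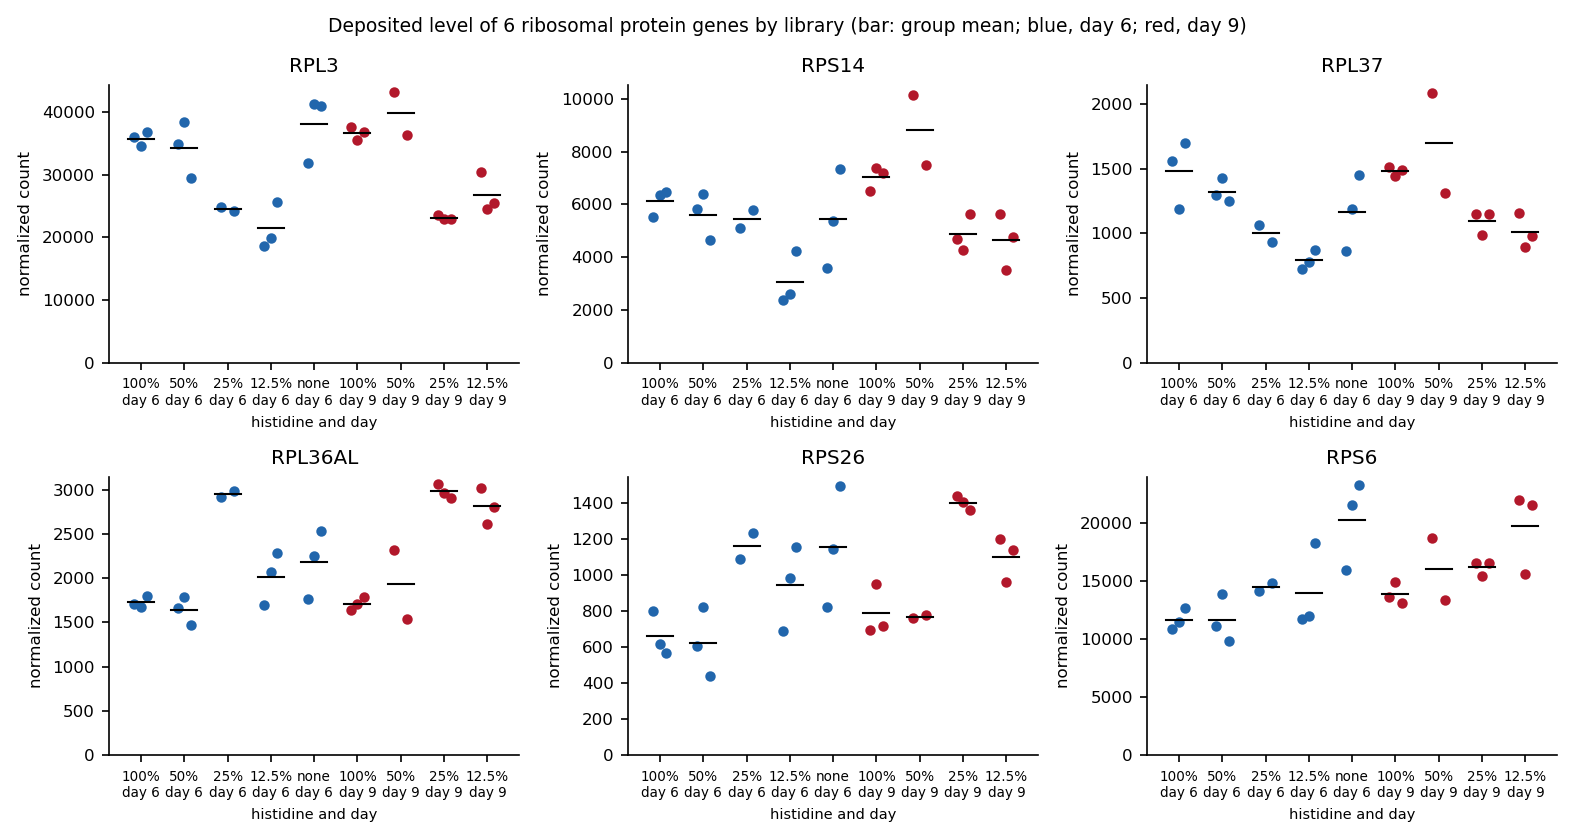
Deposited normalized count (vertical axis, from 0) of RPL3, RPS14, RPL37, RPL36AL, RPS26 and RPS6 in every library, by histidine level and day, with points for libraries and bars for group means. RPL3 is below every control of its day in all 25% and 12.5% libraries, and RPL36AL lies between 2607 and 3066 in the 25% libraries and the 12.5% libraries of day 9, above controls at 1641 to 1801.

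RPS19 fell by 0.47 at 12.5% on day 6, a call that 19 of 39 alternatives ended. RPS4X, the X-linked form of its protein, fell by 0.67 there. RPS27A, made as a fusion with ubiquitin, had a change of -0.43 that did not pass. Of the 9 Diamond-Blackfan genes listed, 3 fell at 12.5% on day 6 (15.3% of all genes fell) and 2 rose without histidine (13.3% of all genes rose), and of the 4 T-cell leukaemia genes 0 passed against full medium on either day.

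Across 100%, 50%, 25% and 12.5% the trend per halving of histidine was also tested. On day 6 it was downward in 23 and upward in 3 of the 78, and on day 9 in 11 and 4, against 15.9% and 13.0% of all genes on day 6 (28.9% in all) and 14.4% and 12.9% on day 9 (27.3%). On day 6 the 3 that rose were RPL9 (0.30 per halving), RPS26 (0.24) and RPL36AL (0.15). On day 9 they were RPL36AL (0.28), RPS26 (0.23), RPS6 (0.15) and RPL7 (0.14), and 12 of 39 alternatives ended the call of RPS6. RPS14 (-0.32 and -0.27 per halving) and RPL37 (-0.31 and -0.23) led the falls on both days. The day 6 count was 17 without 12.5% replicate 1, 47 without replicate 3 and 8 without keratin-high libraries, and the day 9 count 9 without 12.5% replicate 2. On the relative scale 14 rose and 17 fell on day 6, and 10 rose and 15 fell on day 9. Of all genes 15.4% rose and 4.19% fell on this scale on day 6 (19.6% in all), and 6.19% and 6.38% on day 9 (12.6%).

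Between day 6 and day 9 in full medium 0 of 78 members passed (limma), with 2.17% of all genes called (1.1% higher, 1.07% lower). At an unadjusted p under 0.05 there was 1 member, against 2936 of all 18799 genes. At 12.5% 25 members were higher on day 9 and 0 lower, with a median log2 difference of 0.51 and 78 of 78 above 0, against 4.9% of all genes higher and 3.41% lower (8.31% in all). RPS29 (0.85), RPS21 (0.84) and RPL4 (0.75) led. This count ranged from 0 without 12.5% replicate 1 of day 9, and 1 without 12.5% replicate 1 or 2 of day 6, to 71 without 12.5% replicate 3 of day 6. It was 5 without day 9 replicate 3, 44 without day 9 replicate 2, and 51 and 38 without no-histidine replicates 1 and 3.

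The histidine content of the proteins showed little relation to the changes. Histidine codons made up a median of 2.18% of the members' coding sequences (0 to 7.43%), against 2.45% in 12049 other tested genes, in GENCODE 29 transcripts. RPL41, RPLP2, RPL38 and RPS28 have none, RPL27A has 11 in 148 codons, and RPL3 has 16 in 403. RPL36A and RPL36AL each have 3 in 106. Over the 78 genes, which share libraries and are not independent, Pearson's r between the percentage of histidine codons and the log2 change was 0.02 at 25% and -0.12 at 12.5% on day 6, -0.09 without histidine, and -0.06 and -0.07 at 25% and 12.5% on day 9.

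Members with and without a tract at the start site had close medians. At 12.5% on day 6 the 54 genes with a tract had a median log2 change of -0.39 (-1.04 to 0.23), and the 9 without one -0.42 (-1.09 to 0.50). At 25% on day 6 the medians were 0.05 and 0.07, and without histidine 0.20 and 0.15. RPL9 and RPS26, among the largest rises, and RPS29, the largest fall, have no tract within 5 bases of the annotated start. With 10 bases allowed RPL9, RPS26, RPL15 and RPS15 have one and RPS29 still has none, and medians for that window are not given. RPL37, RPS2 and RPL7 were not in the promoter table and stand in neither group. Whether the groups differ was not tested. RPL36AL, which rose, has a tract, as do RPL3 and RPS14, which fell.

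Genes around the cytosolic ribosome were read from fixed lists. Their counts stand against the shares of all genes given above: 15.3% fell and 11.7% rose at 12.5% on day 6, 11.5% and 9.35% on day 9, and 16.5% and 13.3% without histidine. Of 17 other mRNAs with a TOP tract, 5 fell at 12.5% on day 6 (median -0.12), 2 on day 9, and 2 rose and 1 fell without histidine. TPT1, an abundant TOP mRNA, rose by 0.79 without histidine, and EEF2, an elongation factor, by 0.35. RACK1, a 40S scaffold, fell by 0.46 at 12.5% on day 6. FAU, the fusion that encodes a 40S protein, had a change of -0.26 that did not pass.

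Of 12 regulators of TOP mRNAs 4 fell and 1 rose at 12.5% on day 6, and 5 fell and 1 rose on day 9. RPS6KB2, an S6 kinase, was between 1230 and 1490 normalized counts in full medium on day 6 and between 597 and 729 at 12.5%. On day 9 it was between 1261 and 1432 and between 703 and 838. It fell by 0.98 and 0.82, and the groups did not overlap. EIF4EBP1, a translation repressor that is active when mTORC1 is off, fell by 0.86 at 12.5% on day 6. LARP1 fell by 0.36 at 25% on day 6 and by 0.27 at 12.5% on day 9.

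Genes for the mitochondrial ribosome, which shares no subunit with the cytosolic one, were read the same way. At 12.5% 33 of 77 fell and 0 rose on day 6 (median -0.34), and 24 fell and 3 rose on day 9 (median -0.19). At 25% 7 fell and 8 rose on day 6, and 13 fell and 8 rose on day 9. Without histidine 14 fell and 5 rose, near the share of all genes for falls. Of 9 chaperones that escort ribosomal proteins 2 fell at 12.5% on each day, and RRS1, which brings the 5S particle to the 60S precursor, fell by 0.78 at 25% on day 6 and rose by 0.41 without histidine. Of 6 tested paralogs outside the symbol rule RPL22L1 (0.95) and RPL7L1 (0.32) rose without histidine. Of 3 genes of the MDM2 and p53 pathway all 3 rose at 12.5% on day 6, MDM2 by 0.38. These lists were given by their counts, and their difference from the ribosomal protein genes was not tested.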

How the data were processed

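The deposited signal is a normalized count for each gene. The submitters' processing notes name kallisto 0.50.1, GRCh38 and DESeq2 1.44.0 for it, and the labels' protocols name strand-specific total RNA libraries. Raw read depth is unknown, and kallisto can share reads between members and pseudogenes.

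Values were tested as log2(value + 1) with limma 3.58.1 in R 4.3.3 over 18799 genes with at least 10 in at least 2 libraries: 9 group means, 25 libraries, 16 residual degrees of freedom, a mean-variance trend and Benjamini-Hochberg adjustment over all genes in each comparison, with a threshold of 0.05. SEs are limma's. On the relative scale the same fit was repeated after each library was divided by the geometric mean of the 78 genes. The filter was applied again after the division, which gave 19245 genes tested. Data were simulated for 12.5% against 100% on day 6 (18799 genes, 200 of them changed). The fit recovered 46% of changes of 0.5 and 88% of changes of 1 (log2), with 4.96% false calls. The rate of false calls among genes that move together between libraries, as the members do, was not tested.

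The members and lists were chosen with earlier results of these data known. For comparisons with full medium at 12.5% and without histidine the 5 largest calls each way were named, elsewhere 3, with 15 fixed genes; other names were added for their role. Promoters came from RefSeq, and codons from GENCODE 29, whose annotation may differ from the authors'. Groups follow the titles.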

Additional observations from a re-analysis of the deposited data

How the results depend on the processing

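No called direction reversed in any alternative. The counts of members called against full medium in the order 25% day 6, 12.5% day 6, no histidine, 25% day 9 and 12.5% day 9 were 5, 32, 9, 5 and 7. In no histidine against 12.5% the count was 55, and in day 9 against day 6 at 12.5% 25. With the 5.8S rRNA covariate, added after seeing the data, no histidine gave 2, 12.5% on day 9 4 and day 9 against day 6 38, and on the relative scale 12.5% on day 6 gave 10, no histidine 13 and the day 6 trend 20. In fits on the compared groups alone the counts were 17 (25% day 6), 25 (25% day 9), 16 (12.5% day 9), 10 (no histidine against 12.5%), 7 (day 9 against day 6 at 12.5%) and 1 (the same at 100%), and on the relative scale 16 and 8 (25% and 12.5%, day 6), 3 (no histidine) and 27 (25% day 9). With library weights they were 53 (12.5% day 6), 24 (no histidine), 14 and 14 (25% and 12.5%, day 9), 48 (day 6 trend) and 68 (day 9 against day 6), and on the relative scale 25, 50, 46, 29 and 36, with 50 and 40 for the trends. With no filter on low values the relative counts were 5 and 17 (25% and 12.5%, day 6), 13 (no histidine) and 8 (25% day 9). Without the mean-variance trend the counts were 3 (25% day 6), 5 (no histidine), 3 (12.5% day 9), 26 (no histidine against 12.5%) and 4 (day 9 against day 6). Quantile normalization gave 25 without histidine and 9 at 25% on day 9, and rescaling to non-members 25, 9 and, at 12.5% on day 9, 11. Upper-quartile rescaling gave 21 without histidine and 5 for day 9 against day 6, and a stricter filter 38 for the latter. Without the 6 keratin-high libraries, which leaves 1 library each at 100% and 50% on day 6 and at 25% on day 9, counts were 0, 12, 1, 2 and 3, with 36 (no histidine against 12.5%), 8 (day 6 trend) and 7 (day 9 against day 6), and on the relative scale 0, 1, 1, 0 and 8, with 3 and 13 for the trends. The cause of these moves was not tested. Shares of all genes called under each alternative or left-out library are not given. A move of the members' count therefore cannot be told apart from a move of all genes. For the fit without keratin-high libraries, the smaller number of libraries and the removal of high keratin cannot be told apart.

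Leaving out 1 library at a time gave 1 to 6, 14 to 54, 4 to 26, 3 to 8 and 2 to 11 members, 9 to 74 for no histidine against 12.5%, 0 to 71 for day 9 against day 6 at 12.5%, and 17 to 47 and 9 to 19 for the trends. On the relative scale it gave 0 to 9, 13 to 31, 13 to 25, 5 to 15 and 9 to 18, with 20 to 32 and 16 to 26 for the trends. It left 0 at 50% on both days, for day 9 against day 6 at 100% and for the day by dose differences. With the replicate block the count was 28 at 12.5% on day 6, 52 for no histidine against 12.5% and 20 for day 9 against day 6 at 12.5%. Same-number libraries did not deviate together: r was -0.128 to 0.0819 over 92 pairs, and 7 of 25 libraries correlated best with their own number, so the numbers were not taken to pair samples. Without the 10 most abundant other genes in the total the members' share was 4.16% and 4.14% (100% and 25%, day 6) and 4.47% and 4.18% (day 9). RPL23A, RPS2, RPL36A and RPS28 have pseudogene rows with counts of their own and remain uncertain. The count tests planned for raw counts were not run, since the values are not whole.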
